A study of Mus musculus with 12 samples.

Results

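The nuclear-encoded subunits of the mitochondrial respiratory chain and of ATP synthase were followed in RNA libraries labelled as tumor-associated macrophages (TAMs). Genes were chosen by symbol, as the numbered Nduf genes of series a, b, c, s and v, Sdha to Sdhd, the Uqcr genes, the Cox5 to Cox8 genes and the Atp5 genes, with at least 10 counts in at least 6 of the 12 libraries. Of 82 matching symbols among the 55202 named genes of the count table, 76 passed: 35 of complex I, 4 of complex II, 8 of complex III, 12 of complex IV and 17 of complex V. Ndufa4 was counted with complex IV. All 76 had at least 10 counts in each of the 12 libraries, so none passed through a single group. This rule used gene names and counts per library and no difference between groups. The subunits were nonetheless chosen for study with earlier results of these data known, so the counts of changed subunits are a description.

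By their labels, 6 libraries were DMBA3-4 TAM and the other 6 were DMSO3-1 TAM, and every host was Rag1-/-, a genotype without mature lymphocytes of the T and B lineages. A PyMT mammary tumor cell line was treated in culture with the carcinogen DMBA or with its vehicle DMSO, and a clone grown from a single cell of each, DMBA3-4 or DMSO3-1, was implanted at the mammary fat pad, so each group stands for tumors of 1 clone. TAMs were then isolated by sorting on surface CD45, CD11b and F4/80. No source used here states that each library is a different mouse, and the p-values thus describe variation among libraries that could be technical.

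The respiratory chain sits in the inner mitochondrial membrane. Complex I takes electrons from NADH and complex II takes them from succinate. Both pass them through ubiquinone to complex III and by cytochrome c to complex IV, which reduces oxygen. Complexes I, III and IV pump protons, and complex V, the ATP synthase, uses the returning protons to make ATP. Complexes I, III, IV and V combine subunits encoded in the nucleus with a few encoded in mitochondrial DNA, whereas every subunit of complex II is nuclear. In macrophages the balance between glycolysis and respiration is known to shift with activation.

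Total counts were 3040452 to 4632817 in the DMBA3-4 TAM libraries and 2752005 to 3978901 in the DMSO3-1 TAM libraries. The sorted surface proteins were nearly absent as transcripts, at 0 to 7 counts in a library for Ptprc, which encodes CD45, and at 0 to 3 for Itgam (CD11b) and for Adgre1 (F4/80). These markers go against the labelled cell type, so the libraries may hold cells other than macrophages. Which cells they hold was not tested, and the group names used here are the labels only. The 15 macrophage markers together held 0.00685% to 0.0111% of counts in the DMBA3-4 TAM libraries and 0.00596% to 0.00900% in the DMSO3-1 TAM libraries. Fibroblast markers (10 genes) held 0.238% to 0.333% in DMBA3-4 TAM libraries against 0.352% to 0.442% in DMSO3-1 TAM libraries, and epithelial markers (9 genes, with Epcam at 0 counts in all 12) held 0.152% to 0.215% against 0.100% to 0.173%. Each share came mainly from a part of its list. Of the epithelial markers, Krt14, Krt5, Krt19, Cldn4 and Cldn7 had at most 8 counts in a library and Cdh1 at most 24, unlike Krt8 and Krt18. Of the fibroblast markers, Col1a2 had at most 4 and Thy1 at most 1, unlike Col6a1, Col3a1, Pdgfrb and Dcn. Col6a1 had the highest level of the fibroblast markers, at 1497 ± 266 CPM in DMBA3-4 TAM libraries against 2239 ± 200 CPM in DMSO3-1 TAM libraries, and Krt18 that of the epithelial markers, at 1008 ± 152 CPM against 857 ± 136 CPM in the DMSO3-1 TAM libraries (SD, n = 6 each). CPM are counts scaled to a common library size, here with the TMM factors. Single markers moved both ways within a list: of the fibroblast markers Lum was higher, at 80.4 ± 37.0 CPM in DMBA3-4 TAM libraries against 16.7 ± 5.2 CPM in DMSO3-1 TAM libraries (log2 fold change 2.26, SE 0.29), while Col6a1 was lower (-0.58, SE 0.12), and of the epithelial markers Cdh1, E-cadherin, was lower (-4.88, SE 0.58), at 0.135 ± 0.330 CPM against 4.74 ± 0.905 CPM, while Krt8 was higher (0.57, SE 0.16). The endothelial, natural killer, muscle and erythroid lists each held at most 0.000881% in any library. The part of these cell types in the results below was not tested, and in bulk RNA more cells of a type and more RNA per cell cannot be told apart.

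DMSO3-1 replicates 1 and 6 stood apart from DMSO3-1 replicates 2 to 5. On the first principal component of all tested genes, which held 72.4% of the variance, they lay at 40.7 and 41.1, and the other 4 at 62.0 to 69.3. The DMBA3-4 TAM libraries were spread as well, with replicate 5 at -32.4, replicate 6 at -47.4 and the other 4 at -70.1 to -64.8. Without DMBA3-4 replicate 5, 62 subunits were higher and 1 lower, and without DMBA3-4 replicate 6, 66 were higher and 1 lower. Counts of changed subunits are therefore also given without DMSO3-1 replicates 1 and 6 and without DMSO3-1 replicates 2 to 5.

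Most subunit transcripts were higher in the DMBA3-4 TAM libraries. The 76 subunits together took 1.53% to 1.83% of all counts in the DMBA3-4 TAM libraries and 1.04% to 1.36% in the DMSO3-1 TAM libraries, with no overlap. In edgeR's quasi-likelihood test with Benjamini-Hochberg adjustment over all 11511 tested genes, 63 of the 76 were higher in DMBA3-4 TAM libraries at an adjusted p under 0.05, 1 was lower and 12 did not pass. Among all tested genes 29.9% were called higher and 30.2% lower. The median log2 fold change, DMBA3-4 TAM over DMSO3-1 TAM, was 0.68 over the subunits and 0.00 over all tested genes. For 39 subunits every DMBA3-4 TAM library lay above every DMSO3-1 TAM library, as was so for 17.0% of all tested genes, and for 1 subunit every one lay below, against 15.2% of all tested genes.

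The call was broad, and its size varied with the DMSO3-1 TAM libraries compared. Replicates 1 and 6 had been set apart by these same data, as those nearest the DMBA3-4 TAM libraries on the first principal component. Smaller changes against them, and larger ones without them, thus follow in part from that choice. Without replicates 2 to 5, only 2 DMSO3-1 TAM libraries were compared with the 6 DMBA3-4 TAM libraries. Without DMSO3-1 replicates 1 and 6, 65 subunits were higher and 1 lower (31.9% and 31.5% of all tested genes), with a median log2 fold change of 0.75. Without DMSO3-1 replicates 2 to 5, 47 were higher and 2 lower (18.5% and 18.4% of all tested genes), with a median of 0.47. All of those 47 were among the 63, and they were 27 of 35 in complex I, 1 of 4 in complex II, 4 of 8 in complex III, 8 of 12 in complex IV and 7 of 17 in complex V. In complexes II to V together, with all 12 libraries, 0 subunits were lower in edgeR at an adjusted p or at an unadjusted p under 0.05, and likewise 0 in DESeq2 and limma-voom.

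**Figure D1:**
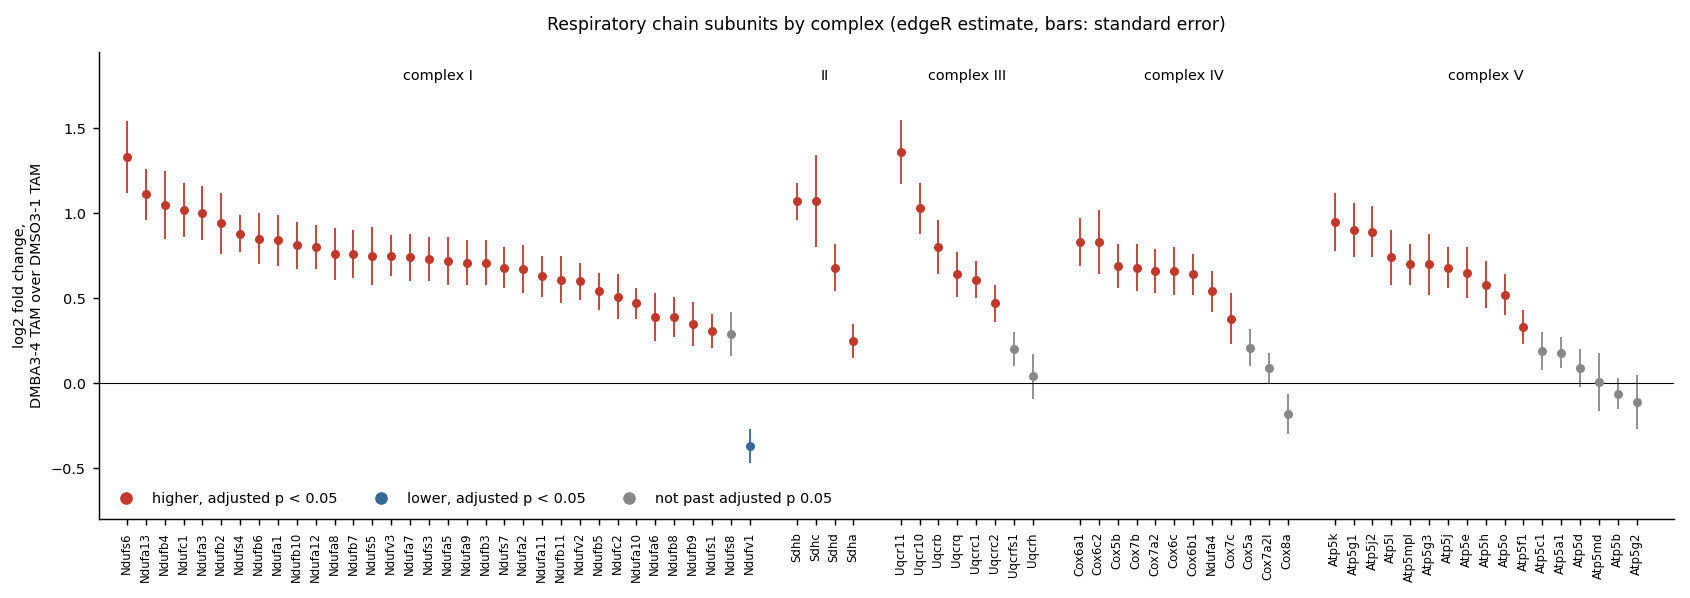
Log2 fold change of the subunits, DMBA3-4 TAM over DMSO3-1 TAM, with 1 of the 76 not drawn, grouped by complex and sorted by size, with the edgeR estimate as a point and its standard error as a bar. Red points were called higher, the blue point lower, and grey points did not pass an adjusted p of 0.05. Ndufv1 at -0.37 is the single subunit called lower, and 6 of the 12 grey points belong to complex V.

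Summed over their nuclear subunits, the complexes differed in size of change. Complex I summed to 5470 ± 679 CPM in DMBA3-4 TAM libraries and 3528 ± 497 CPM in DMSO3-1 TAM libraries, a ratio of 1.55 (SD, n = 6 each). Complex II summed to 1253 ± 111 CPM in DMBA3-4 TAM libraries and 814 ± 133 CPM in DMSO3-1 TAM libraries, a ratio of 1.54. For complex III they were 2016 ± 233 in DMBA3-4 TAM libraries and 1363 ± 181 CPM in DMSO3-1 TAM libraries, a ratio of 1.48. Complex IV had a lower ratio of 1.35, with 2590 ± 305 CPM in DMBA3-4 TAM libraries and 1921 ± 300 CPM in DMSO3-1 TAM libraries. Complex V had the lowest, 1.18, with 5665 ± 390 CPM in DMBA3-4 TAM libraries and 4795 ± 508 CPM in DMSO3-1 TAM libraries. The sums of complexes I, II and III did not overlap between the groups, while those of complexes IV and V did. A sum is led by its most abundant members, and in complex V the F1 subunits Atp5b and Atp5a1 made up a large part of it.

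**Figure D2:**
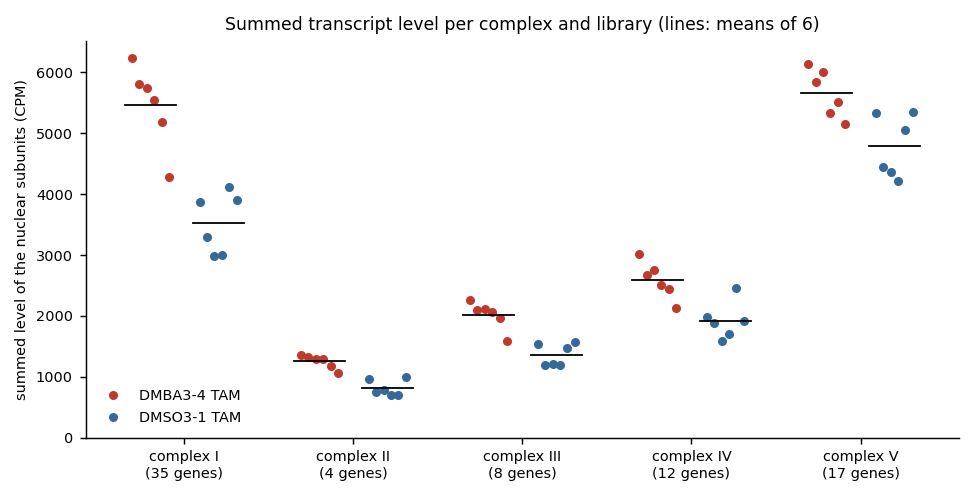
Summed level of the nuclear subunits of each complex in CPM, with a point for each library and a line at the mean of 6, DMBA3-4 TAM in red to the left of DMSO3-1 TAM in blue. Complex I sums lie between 4278 and 6243 CPM in DMBA3-4 TAM libraries and between 2986 and 4117 CPM in DMSO3-1 TAM libraries, while the groups of complex V overlap.

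Of the 35 complex I subunits, 33 were higher, 1 was lower and Ndufs8 did not pass, with a median log2 fold change of 0.72. All 28 supernumerary subunits, those that surround the conserved catalytic core and serve in its assembly and stability, were higher, with log2 fold changes of 0.35 to 1.33. Ndufs6, a zinc-binding subunit of the NADH-oxidizing arm, had the largest change. It had 49.7, 80 and 99.4 CPM (lowest, median and highest) in DMBA3-4 TAM libraries, against 20.3, 29 and 44.9 CPM in DMSO3-1 TAM libraries. The groups did not overlap, and among the DMSO3-1 TAM libraries replicates 1 and 6 were the highest. The log2 fold change was 1.33 (SE 0.21, adjusted p = 7.44e-05), 1.66 without DMSO3-1 replicates 1 and 6, and 0.79 (adjusted p = 0.00900) without replicates 2 to 5. Ndufs6 (13:73319838-73328542, minus strand, GRCm38) shares exon sequence with the opposite-strand gene Mrpl36, itself higher by 0.87 (SE 0.15, adjusted p = 0.000155), and without strand information their reads cannot be told apart.

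Ndufa13 and Ndufb4, supernumerary subunits of the membrane arm, followed. Ndufa13 had 283, 447 and 488 CPM in DMBA3-4 TAM libraries, against 158, 186 and 264 CPM in DMSO3-1 TAM libraries (log2 fold change 1.11, SE 0.15, adjusted p = 1.67e-05). Ndufb4 had 27.5, 36.5 and 45 CPM in DMBA3-4 TAM libraries, against 11.7, 16.7 and 24.2 CPM in DMSO3-1 TAM libraries (1.05, SE 0.20, adjusted p = 0.000308). Neither gene's groups overlapped. The 20 subunits not assigned to the N or Q module, Ndufa9 among them, were counted as membrane arm and were all higher (median 0.75). So were 9 of 10 in the NADH-oxidizing N module (median 0.71) and 4 of 5 in the ubiquinone-reducing Q module (median 0.68).

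The conserved nuclear core of complex I, which binds the flavin and iron-sulfur clusters, was less uniform. Ndufv1, the flavin-binding subunit that takes electrons from NADH, was the only subunit of the 76 called lower. It had 158, 176 and 196 CPM in DMBA3-4 TAM libraries, against 197, 236 and 258 CPM in DMSO3-1 TAM libraries. Every DMBA3-4 TAM library lay below every DMSO3-1 TAM library, with the closest pair at 196 and 197 CPM. The log2 fold change was -0.37 (SE 0.10, adjusted p = 0.00400). An exact permutation test of the difference in mean log2(CPM + 1), two-sided, gave p = 0.00216, the smallest that the 924 splits allow. Groups without overlap always give that value, so the permutation test adds nothing to the separation. Ndufv1 stayed lower when either set of DMSO3-1 libraries was left out, at -0.28 (adjusted p = 0.0308) without replicates 1 and 6 and at -0.56 (adjusted p = 0.00196) without replicates 2 to 5. With no filter on low counts its adjusted p was 0.0539.

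Ndufv2, the iron-sulfur partner of Ndufv1, went the other way, with 209, 260 and 297 CPM in DMBA3-4 TAM libraries, against 141, 166 and 193 CPM in DMSO3-1 TAM libraries (log2 fold change 0.60, SE 0.11, adjusted p = 0.000332). Ndufs3 and Ndufs7, core subunits of the Q module, were higher by 0.73 (SE 0.13) and 0.68 (SE 0.12), with adjusted p of 0.000202 and 0.000165. The groups of Ndufs3 and of Ndufs7 did not overlap. Ndufs8, which holds iron-sulfur clusters, had 173, 215 and 230 CPM in DMBA3-4 TAM libraries, against 132, 168 and 227 CPM in DMSO3-1 TAM libraries (0.29, SE 0.13, adjusted p = 0.0618). It passed under 7 of 22 alternatives, among them without DMSO3-1 replicate 5 (0.39, adjusted p = 0.00932).

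Ndufs1, the largest iron-sulfur subunit, had 128, 139 and 162 CPM in DMBA3-4 TAM libraries, against 102, 113 and 132 CPM in DMSO3-1 TAM libraries (0.31, SE 0.10, adjusted p = 0.0149). Its exons overlap those of the opposite-strand gene Eef1b2, a translation elongation factor with 29977 counts over the 12 libraries against 5570 for Ndufs1, and Eef1b2 was lower with a log2 fold change of -0.65 (SE 0.10, adjusted p = 7.09e-05). The value of Ndufs1 is therefore uncertain, and it was not past the threshold without DMSO3-1 replicates 2 to 5 (0.10, adjusted p = 0.574). In all, 23 of the 76 subunits have exons that overlap a gene on the opposite strand.

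**Figure D3:**
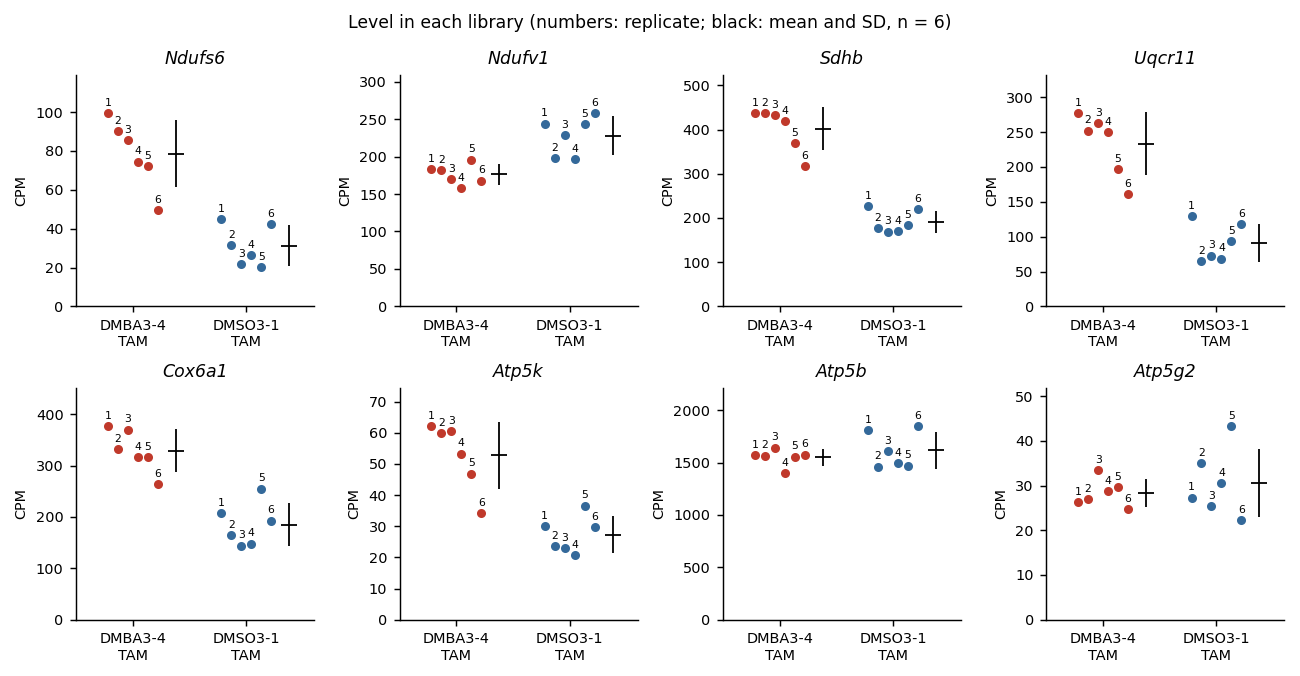
Level in CPM of 8 subunits in each library, numbered by replicate, DMBA3-4 TAM to the left of DMSO3-1 TAM, with the mean and SD of 6 in black. Ndufs6, Sdhb, Uqcr11 and Cox6a1 lie higher in all 6 DMBA3-4 TAM libraries than in any DMSO3-1 TAM library, Ndufv1 lies lower, Atp5k overlaps slightly, and Atp5b and Atp5g2 overlap widely.

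Complex II, succinate dehydrogenase, also belongs to the tricarboxylic acid (TCA) cycle. All 4 subunits were called higher, with unequal sizes. Sdhb, the iron-sulfur subunit, had 317, 426 and 437 CPM in DMBA3-4 TAM libraries, against 169, 181 and 226 CPM in DMSO3-1 TAM libraries. The lowest DMBA3-4 TAM library was well above the highest DMSO3-1 TAM library, and the log2 fold change of 1.07 (SE 0.11) had the smallest adjusted p of the subunits, 1.30e-06. Sdhc, which anchors the enzyme in the membrane, also changed by 1.07, but with an SE of 0.27 (adjusted p = 0.00359). It had 102, 123 and 141 CPM in DMBA3-4 TAM libraries, while in DMSO3-1 TAM libraries replicates 1 and 6 had 95.4 and 99.9 CPM and replicates 2 to 5 had 28.3, 50.4, 35.8 and 42.0 CPM. Without replicates 2 to 5 the log2 fold change of Sdhc was 0.28 (adjusted p = 0.144), and without replicates 1 and 6 it was 1.67 (adjusted p = 3.71e-07).

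Sdhd, the other membrane anchor, had 152, 224 and 236 CPM in DMBA3-4 TAM libraries, against 111, 123 and 172 CPM in DMSO3-1 TAM libraries (log2 fold change 0.68, SE 0.14, adjusted p = 0.000677). Only DMBA3-4 replicate 6 fell inside the range of the DMSO3-1 TAM libraries, and without DMSO3-1 replicates 2 to 5 the call was lost (0.30, adjusted p = 0.131). Sdha, the flavoprotein that oxidizes succinate, had 469, 509 and 552 CPM in DMBA3-4 TAM libraries, against 363, 429 and 500 CPM in DMSO3-1 TAM libraries (0.25, SE 0.10, adjusted p = 0.0388). Its call is marginal, since it was lost under 12 of 22 alternatives, and the estimate was 0.00 without DMSO3-1 replicates 2 to 5.

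Complex III had 6 of 8 subunits higher and none lower at an adjusted p under 0.05. Uqcr11, a small supernumerary subunit, changed most of all 76. It had 161, 251 and 277 CPM in DMBA3-4 TAM libraries, against 64.5, 83.3 and 129 CPM in DMSO3-1 TAM libraries, without overlap (log2 fold change 1.36, SE 0.19, adjusted p = 1.92e-05). Uqcr10, another small subunit, had 124, 189 and 218 CPM in DMBA3-4 TAM libraries, against 65.0, 91.0 and 108 CPM in DMSO3-1 TAM libraries (1.03, SE 0.15, adjusted p = 3.33e-05). Uqcrb, which lies by the ubiquinone site, had 98.9, 134 and 166 CPM in DMBA3-4 TAM libraries, against 52.2, 77.2 and 99.2 CPM in DMSO3-1 TAM libraries (0.80, SE 0.16, adjusted p = 0.000471). The groups of Uqcrb overlapped only by its lowest DMBA3-4 and highest DMSO3-1 TAM library.

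The core proteins Uqcrc1 and Uqcrc2 were higher by 0.61 (SE 0.11) and 0.47 (SE 0.11), and Uqcrc2 lost its call without DMSO3-1 replicates 2 to 5. Uqcrfs1, the Rieske iron-sulfur protein, had 177, 208 and 215 CPM in DMBA3-4 TAM libraries, against 149, 176 and 211 CPM in DMSO3-1 TAM libraries, and did not pass (0.20, SE 0.10, adjusted p = 0.0862). Uqcrh, the hinge protein that helps cytochrome c to dock, gave nearly the same range in both groups, with 207, 286 and 327 CPM in DMBA3-4 TAM libraries, against 207, 280 and 329 CPM in DMSO3-1 TAM libraries (0.04, SE 0.13, adjusted p = 0.776). Its 2 processed copies, Uqcrh-ps1 and Uqcrh-ps2, had 0 to 7 and 10 to 28 counts in a library, against 679 to 1341 for Uqcrh. Few reads were thus counted for the copies.

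Complex IV, cytochrome c oxidase, had 9 of 12 genes higher and none lower, with Ndufa4 and the pseudogene Cox6c2 counted among them, both higher. Cox6a1, a regulatory subunit in its widely expressed form, had 264, 324 and 376 CPM in DMBA3-4 TAM libraries, against 144, 178 and 255 CPM in DMSO3-1 TAM libraries (log2 fold change 0.83, SE 0.14, adjusted p = 0.000118). The groups did not overlap, and the highest DMSO3-1 TAM library was replicate 5. Cox5b had 182, 224 and 252 CPM in DMBA3-4 TAM libraries, against 106, 128 and 180 CPM in DMSO3-1 TAM libraries (0.69, SE 0.13, adjusted p = 0.000393). Cox5a, which sits beside Cox5b on the matrix side of the enzyme, did not pass (0.21, SE 0.11, adjusted p = 0.111).

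Cox6c2 was the gene nearest to the count rule from inside, with 21 to 79 counts per library. It is annotated as a processed pseudogene (12:56373593-56373823, GRCm38) and is named after Cox6c. It had 12.1, 17.2 and 20 CPM in DMBA3-4 TAM libraries, against 7.5, 9.38 and 12.1 CPM in DMSO3-1 TAM libraries (0.83, SE 0.19, adjusted p = 0.00137). Its counts were 6.14% to 9.07% of those of Cox6c in DMBA3-4 TAM libraries and 6.05% to 7.80% in DMSO3-1 TAM libraries, and Cox6c was itself higher by 0.66 (SE 0.14, adjusted p = 0.000650). Reads of such near copies can be split by the counting, so the separate value of Cox6c2 is uncertain.

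Several complex IV subunits have tissue isoforms, and the libraries held the widely expressed forms almost exclusively. Cox6a2 and Cox7a1, the heart and skeletal muscle forms, missed the count rule with 13 and 22 counts over the 12 libraries and at most 6 and 4 in any. They were the nearest outside it. Cox6b2 and Cox7b2, testis forms, had 4 and 3 counts in all, and Cox8b and Cox8c had 0. Among the widely expressed partners, Cox6b1 (0.64, SE 0.12), Cox7a2 (0.66, SE 0.13) and Cox7b (0.68, SE 0.14) were higher, with adjusted p of 0.000329, 0.000379 and 0.000701.

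Cox8a did not pass. It had 356, 412 and 466 CPM in DMBA3-4 TAM libraries, against 395, 436 and 627 CPM in DMSO3-1 TAM libraries (-0.18, SE 0.12, adjusted p = 0.195). Cox7a2l, a homolog of Cox7a2, had 153, 172 and 195 CPM in DMBA3-4 TAM libraries, against 138, 166 and 177 CPM in DMSO3-1 TAM libraries (0.09, SE 0.09, adjusted p = 0.407). The estimate for Cox7a2l was -0.05 without DMSO3-1 replicates 2 to 5.

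Complex V had the smallest share of changed members, with 11 of 17 higher, none lower and a median log2 fold change of 0.58. Its parts differed in their counts. Of the 5 subunits of the catalytic F1 head 1 was higher (median 0.18), and of the 12 of the stalk and membrane part 10 were (median 0.69). The difference between these parts was not itself tested. Beside them, 29.9% of all tested genes were called higher, a share that the stalk and membrane part exceeded and the F1 head did not. The count of the F1 head alone thus does not set it apart from all tested genes. Atp5b, the catalytic beta subunit, had 1397, 1566 and 1642 CPM in DMBA3-4 TAM libraries, against 1461, 1553 and 1844 CPM in DMSO3-1 TAM libraries (-0.06, SE 0.09, adjusted p = 0.596). Its direction depended on the DMSO3-1 TAM libraries, being 0.06 without replicates 1 and 6 and -0.29 (adjusted p = 0.0481) without replicates 2 to 5. Atp5a1, the alpha subunit that alternates with beta in the head, had 1084, 1128 and 1200 CPM in DMBA3-4 TAM libraries, against 865, 978 and 1153 CPM in DMSO3-1 TAM libraries (0.18, SE 0.09, adjusted p = 0.114). Without DMSO3-1 replicates 1 and 6 it was past the threshold (0.30, adjusted p = 0.0101), and without replicates 2 to 5 it was -0.07. The gamma and delta subunits Atp5c1 (0.19, SE 0.11) and Atp5d (0.09, SE 0.11) did not pass either, whereas Atp5e, the epsilon subunit and smallest of the head, did (0.65, SE 0.15, adjusted p = 0.00141). Without DMSO3-1 replicates 2 to 5 Atp5e lost its call. There 0 of the F1 head were higher and 1 lower (median -0.05), and 7 of the 12 of the stalk and membrane part were higher and 0 lower. Beside them, 18.5% of all tested genes were higher and 18.4% lower.

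In the membrane part the largest changes were in Atp5k, Atp5g1 and Atp5j2. Atp5k, the e subunit that takes part in pairing of the enzyme, had 34.1, 56.6 and 62.0 CPM in DMBA3-4 TAM libraries, against 20.8, 26.7 and 36.6 CPM in DMSO3-1 TAM libraries (0.95, SE 0.17, adjusted p = 0.000242). Atp5j2, the f subunit, had 162, 217 and 241 CPM in DMBA3-4 TAM libraries, against 80.4, 111 and 159 CPM in DMSO3-1 TAM libraries (0.89, SE 0.15, adjusted p = 0.000129). The groups of Atp5j2 did not overlap, and those of Atp5k overlapped by 1 library on each side. Atp5md, a small subunit of the same region, did not differ detectably, at 54.9 ± 13.2 CPM in DMBA3-4 TAM libraries and 54.6 ± 11.1 CPM in DMSO3-1 TAM libraries (0.01, SE 0.17, adjusted p = 0.976). Among the others, Atp5j (0.68, SE 0.12, adjusted p = 0.000168) shares exon sequence with Gabpa on the opposite strand, which was lower (-0.71).

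The c subunit of the rotating ring is made from 3 genes, Atp5g1, Atp5g2 and Atp5g3, that encode the same mature protein. Atp5g1 had 83.2, 105 and 123 CPM in DMBA3-4 TAM libraries, against 43.2, 51.9 and 72.5 CPM in DMSO3-1 TAM libraries, without overlap (0.90, SE 0.16, adjusted p = 0.000159). Atp5g3 had 208, 253 and 285 CPM in DMBA3-4 TAM libraries, against 99.3, 139 and 235 CPM in DMSO3-1 TAM libraries (0.70, SE 0.18, adjusted p = 0.00306), and lost its call without DMSO3-1 replicates 2 to 5 (0.18, adjusted p = 0.316). Atp5g2 had 24.7, 27.9 and 33.5 CPM in DMBA3-4 TAM libraries, against 22.3, 28.9 and 43.2 CPM in DMSO3-1 TAM libraries (-0.11, SE 0.16, adjusted p = 0.563). Of the counts of the 3 genes, Atp5g2 held 6.06% to 8.49% in DMBA3-4 TAM libraries and 6.78% to 17.7% in DMSO3-1 TAM libraries, and Atp5g3 held the most in every library, 63.0% to 67.0% in DMBA3-4 TAM libraries and 56.6% to 71.2% in DMSO3-1 TAM libraries.

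Per kilobase of the annotated transcript with the longest coding sequence, Atp5b and Cox8a had the highest levels of the subunits in both groups. Atp5b had 809 ± 42.5 CPM per kb in DMBA3-4 TAM libraries and 843 ± 90.5 in DMSO3-1 TAM libraries, and Cox8a had 753 ± 70.7 CPM per kb in DMBA3-4 TAM libraries and 852 ± 154 in DMSO3-1 TAM libraries (SD, n = 6 each). Neither changed past the threshold. Cox6a1 was the third in DMBA3-4 TAM libraries (577 ± 72.0 CPM per kb) and ranked 8 in DMSO3-1 TAM libraries (324 ± 73.7), and Uqcr11 had 524 ± 100 CPM per kb in DMBA3-4 TAM libraries against 204 ± 60.9 in DMSO3-1 TAM libraries. Across the 74 subunits with a coding length, log2 fold change and mean level had a Spearman rho of -0.44, against -0.03 over 10345 tested genes. The level here was plain CPM, not CPM per kb. Such a rho describes genes of the same libraries and is not a test.

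Changes also followed gene length in the whole table. Respiratory subunits are small, with a median coding length of 417 nt against 1401 nt for the 10345 tested genes that had one. Of tested genes with a coding length up to 300 nt, 53.6% were higher and 12.5% lower in DMBA3-4 TAM libraries, and of those over 2400 nt 13.6% were higher and 49.5% lower. The subunits were higher for 17 of 19 up to 300 nt, 31 of 35 at 301 to 600 nt (all genes 51.5%), 8 of 11 at 601 to 1200 nt (40.9%) and 6 of 9 at 1201 to 2400 nt (26.6%). Spearman's rho between coding length and log2 fold change was -0.36 over 74 subunits and -0.30 over 10345 genes. Genes up to 600 nt other than the subunits held 15.1% to 17.5% of counts in DMBA3-4 TAM libraries and 12.3% to 15.4% in DMSO3-1 TAM libraries. Those over 2400 nt held 12.6% to 15.7% in DMBA3-4 TAM libraries and 16.9% to 23.0% in DMSO3-1 TAM libraries. The part of length, and of any difference in RNA or library quality behind it, in the subunits' changes was not tested.

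**Figure D4:**
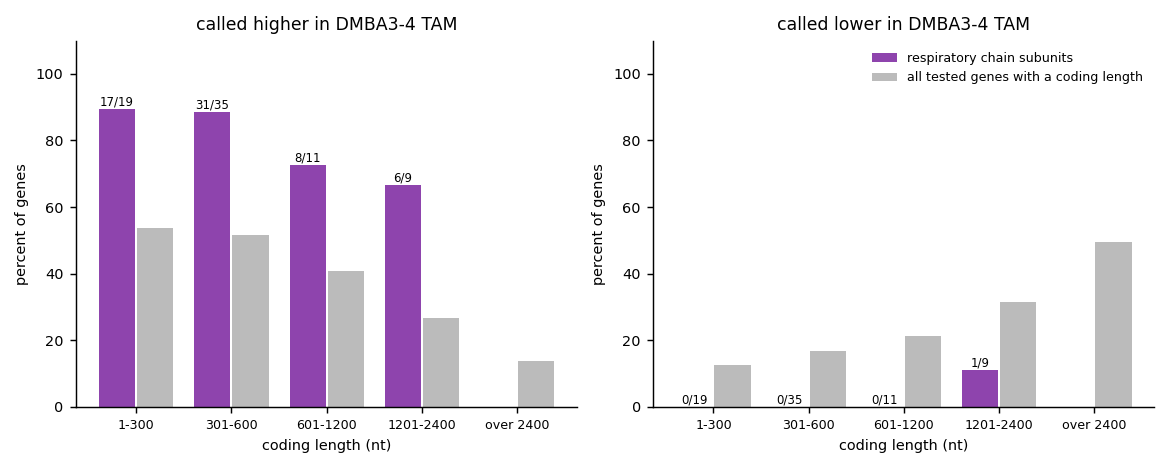
Percent of genes called higher (left panel) and lower (right panel) in DMBA3-4 TAM libraries by coding length in nt, for the respiratory chain subunits (purple, with their counts) and all tested genes with a coding length (grey). The grey share called higher falls with length, at 53.6% in the shortest class and 13.6% in the longest, and the subunits lie above it in each of the 4 classes that hold any.

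Within a group the subunits varied together. DMBA3-4 replicate 6 had the lowest level of its group for 67 of the 76 subunits, and DMBA3-4 replicate 1 had the highest for 56. Among DMSO3-1 TAM libraries replicate 5 was highest for 40 and replicate 3 lowest for 38. For 27 subunits DMSO3-1 replicates 1 and 6 both lay above replicates 2 to 5, among them all 4 of complex II. Replicates 1 and 6 had been set apart by these same data. The shares of all tested genes with such orders of libraries were not counted, so these counts do not set the subunits apart from other genes. Correlating deviations from the group means over 12 libraries gave a median r of 0.71 over 2850 pairs of subunits, 0.74 within a complex and 0.70 between complexes, against 0.00 over all pairs of tested genes. These correlations share libraries and depth. The subunits with the weakest mean correlation to the others were Ndufs1 (0.04), Atp5g2 (0.18), Sdha (0.22) and Atp5b (0.22), and Uqcr10 had the strongest (0.78). DMBA3-4 replicates 1 and 6 were also the highest and lowest of their group in the share of counts in other genes up to 600 nt, at 17.5% and 15.1%.

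Promoters of respiratory genes are known for sites of the factors NRF1, GABPA (NRF2), YY1 and ERR-alpha. RefSeq promoter windows of 250 bases before and 50 after the start (GRCm38.p6) matched 64 of the 76 subunits. On either strand, a match to the NRF1 consensus was found in 9 of 64 windows (14.1%, against 2.36% of all 27025 windows), to CCGGAAG, the GABPA core, in 16 (25.0%, against 9.12%), to AANATGGCG, the YY1 site, in 8 (12.5%, against 2.51%), and to TCAAGGTCA, the ERR site, in 2 (3.12%, against 0.407%). Of the 52 windows of subunits called higher, 8, 12, 7 and 2 held these motifs in that order, and of the 12 windows of the other subunits 1, 4, 1 and 0 did. Each motif but that of ERR was found in windows of both sets, and a match is a description and not a site in use.

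The stretches below, free of annotated exons, are shown as those of the subunit with the largest change among those called higher that held the NRF1, GABPA or ERR motif there, with Ndufv1, the subunit called lower, beside them. Capitals mark the motif, and sequences run 5′ to 3′ in the direction of the gene. The NRF1 match of Ndufb4 lies in chr16:37654454-37654603 (minus strand), the GABPA core of Uqcr11 in chr10:80406831-80406980 (minus), and the ERR match of Atp5g3, on the opposite strand, in chr2:73911327-73911476 (minus). The stretch of Ndufv1 in chr19:4012807-4012956 (minus) held none of the 4 motifs. No YY1 match of a subunit called higher lay within such a stretch, so none is shown.
Ndufb4: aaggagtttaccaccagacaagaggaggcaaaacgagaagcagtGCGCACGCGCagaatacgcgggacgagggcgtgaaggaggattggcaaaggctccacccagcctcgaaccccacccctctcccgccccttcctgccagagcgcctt
Uqcr11: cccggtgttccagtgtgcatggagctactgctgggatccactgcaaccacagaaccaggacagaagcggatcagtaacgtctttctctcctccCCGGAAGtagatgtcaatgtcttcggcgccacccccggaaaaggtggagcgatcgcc
Atp5g3: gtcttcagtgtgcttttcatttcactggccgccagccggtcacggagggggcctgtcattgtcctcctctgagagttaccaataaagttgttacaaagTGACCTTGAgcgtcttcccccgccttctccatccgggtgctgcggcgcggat
Ndufv1: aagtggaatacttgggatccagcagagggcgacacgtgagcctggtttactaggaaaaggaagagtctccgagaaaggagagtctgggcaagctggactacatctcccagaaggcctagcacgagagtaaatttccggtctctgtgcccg

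Other genes of oxidative metabolism were counted by lists. Of all tested genes 29.9% were higher and 30.2% lower, and 18.5% and 18.4% without DMSO3-1 replicates 2 to 5. Of 9 respiratory genes outside the naming patterns, 7 of 8 tested were higher and none lower, and 4 of 8 were higher without DMSO3-1 replicates 2 to 5. Etfb, a subunit of the electron transfer flavoprotein, averaged 59.3 ± 11.1 CPM in DMBA3-4 TAM libraries and 24.0 ± 4.38 CPM in DMSO3-1 TAM libraries (log2 fold change 1.30, SE 0.16), and Cycs, cytochrome c, averaged 41.7 ± 6.47 CPM in DMBA3-4 TAM libraries and 20.2 ± 5.86 CPM in DMSO3-1 TAM libraries (1.04, SE 0.19). Cox4i1, the widely expressed form of subunit 4 of complex IV, did not pass (-0.15, SE 0.17, adjusted p = 0.460). Of 11 tested subunits encoded in mitochondrial DNA, 9 were higher and 0 lower (median 1.24). At an unadjusted p under 0.05 in edgeR these were 10 and 0. For 0 of the 11 did every DMBA3-4 TAM library lie above every DMSO3-1 TAM library, against 17.0% of all tested genes. Without DMSO3-1 replicates 2 to 5, 2 of 12 were higher (16.7%), close to the 18.5% of all tested genes. Together the mitochondrially encoded transcripts took 1.28% to 2.92% of counts in DMBA3-4 TAM libraries and 0.669% to 1.31% in DMSO3-1 TAM libraries. Among them mt-Co2, a subunit of complex IV, averaged 18.1 ± 5.80 CPM in DMBA3-4 TAM libraries and 6.02 ± 4.16 CPM in DMSO3-1 TAM libraries (1.57, SE 0.41, adjusted p = 0.00369), and mt-Nd4, of complex I, averaged 1199 ± 454 CPM in DMBA3-4 TAM libraries and 417 ± 94.7 CPM in DMSO3-1 TAM libraries (1.52, SE 0.25, adjusted p = 0.000117).

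Of 46 tested assembly factors, 28 were higher and 2 lower (median 0.60), beside 29.9% and 30.2% of all tested genes. Without DMSO3-1 replicates 2 to 5 they were 15 and 2 (32.6% and 4.35%), beside 18.5% and 18.4% of all tested genes. Pet100 and Ndufaf3, which help to build complexes IV and I, were higher by 1.37 (SE 0.21) and 1.24 (SE 0.16). Cox15, which makes heme A for complex IV, averaged 6.97 ± 1.55 CPM in DMBA3-4 TAM libraries and 23.7 ± 11.3 CPM in DMSO3-1 TAM libraries (-1.76, SE 0.31, adjusted p = 0.000163), and Coa5 was also lower (-0.62, SE 0.17). In the TCA cycle 8 of 13 were higher and 1 lower. Without DMSO3-1 replicates 2 to 5 they were 3 and 1 (23.1% and 7.69%), the share higher being near the 18.5% of all tested genes. Mdh2, malate dehydrogenase, was higher by 0.88 (SE 0.13) and Suclg1 by 0.84 (SE 0.12), and Cs, citrate synthase, was the lower one, at 289 ± 27.7 CPM in DMBA3-4 TAM libraries and 349 ± 40.4 CPM in DMSO3-1 TAM libraries (-0.27, SE 0.10, adjusted p = 0.0308). The call of Cs is marginal. It was lost with scaling by library size or upper quartile, with no filter on low counts, with the replicate block, without DMBA3-4 replicate 1, 2 or 4, without DMSO3-1 replicate 3 or 6, and without DMSO3-1 replicates 1 and 6 together.

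Regulators of mitochondrial biogenesis had more members lower than higher. Of 10 tested, 1 was higher and 5 lower at an adjusted p under 0.05 (median -0.37), beside 29.9% higher and 30.2% lower of all tested genes. Without DMSO3-1 replicates 2 to 5, 0 were higher and 2 of 10 lower (0 and 3 at an unadjusted p under 0.05 in edgeR), beside 18.5% and 18.4% of all tested genes, a share lower close to that of all genes. Pprc1, a coactivator of the PGC-1 family, averaged 22.7 ± 5.59 CPM in DMBA3-4 TAM libraries and 61.4 ± 15.4 CPM in DMSO3-1 TAM libraries (-1.43, SE 0.20, adjusted p = 1.86e-05). Its relative Ppargc1b was also lower (-1.25, SE 0.30, adjusted p = 0.00188). Gabpa was lower (-0.71, SE 0.26, adjusted p = 0.0269), with the overlap with Atp5j given above. It had 26.7 to 39.2 CPM in DMBA3-4 TAM libraries and 48.7 to 91.1 CPM in DMSO3-1 replicates 2 to 5. DMSO3-1 replicates 1 and 6 had 34.8 and 23.1 CPM, so the difference in Gabpa rested on replicates 2 to 5. Yy1 was higher, at 55.5 ± 9.09 CPM in DMBA3-4 TAM libraries and 35.6 ± 8.50 CPM in DMSO3-1 TAM libraries (0.64, SE 0.16, adjusted p = 0.00304). Ppargc1a, the best known coactivator of the family, had too few counts to be tested.

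**Figure D5:**
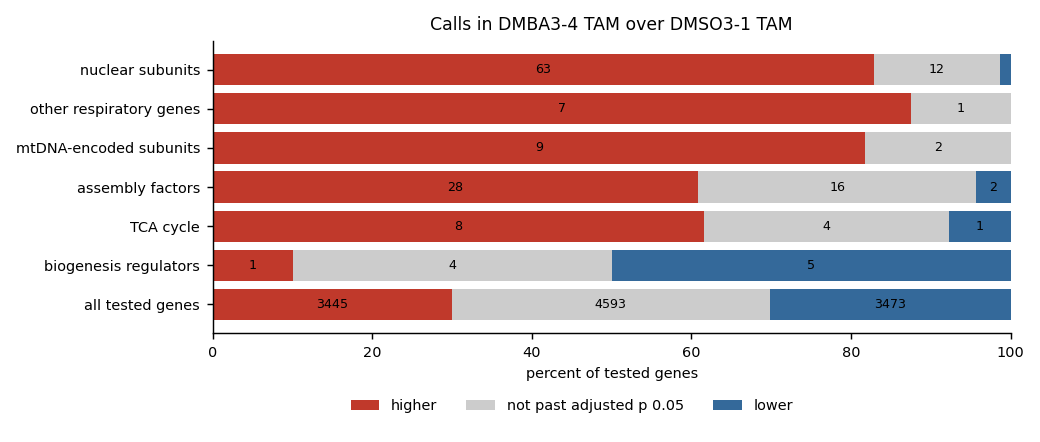
Percent of tested genes of each list called higher (red), not past an adjusted p of 0.05 (grey) and lower (blue) in DMBA3-4 TAM over DMSO3-1 TAM, with the number of genes printed in the bars. The nuclear subunits show 63 of 76 higher and the regulators 5 of 10 lower, beside 3445 higher and 3473 lower of all 11511 tested genes.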

How the data were processed

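The authors deposited whole-number counts per gene for 12 libraries (6 DMBA3-4 TAM, 6 DMSO3-1 TAM), not normalized. The submitters' processing notes name GRCm38 (mm10), while aligner, counting program and strand setting are not given in the sources used here. SmartSeq2 from lysates is described in the methods, and column-purified RNA with a SMARTER kit in the labels. A second deposited table holds the authors' fold changes and p-values, not used here, and a mean normalized count per gene, a pooled signal with no SD, over samples named otherwise than the count columns, and gave no result here. From the counts, 19 entries named by numbers (at most 0.128% of a library) were dropped. Genes were filtered with filterByExpr, scaled by TMM and tested with edgeR 4.0.16 (robust quasi-likelihood, R 4.3.3) over 11511 genes, and the SE is the absolute log2 fold change over the root of F. DESeq2 1.42.0, limma-voom 3.58.1, a replicate block, left-out libraries and changes of scaling, filter and threshold were alternatives. The test was also run on simulated counts in which few genes changed, unlike here, so that check does not cover data with many changes. The closest libraries of a group differed by a chi-square of 2.65 per gene, above sampling noise. Named subunits are up to 3 largest changes each way in each complex, the complex I core, catalytic subunits, isoforms and those nearest the count rule, and up to 4 genes of each list. Subunits and lists were chosen with earlier results of these data known. Annotation is GENCODE M21 and promoters are from RefSeq. Coding length is that of the transcript with the longest coding sequence, and the shortest among equals. The values of 1 subunit are not reported here, though it is counted.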

Additional observations from a re-analysis of the deposited data

Results flagged for a closer look

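Among the 66 sets of 6 libraries formed by 33 named subunits and 2 groups, 3 held a library far from the others by Dixon's ratio (the gap to the nearest library divided by the range), where chance flags about 1 in 20. Sdhd had 152 CPM in DMBA3-4 replicate 6, against 220 to 236 CPM in the other 5 DMBA3-4 TAM libraries (ratio 0.807). Uqcrfs1 had 177 CPM in the same library, against 205 to 215 CPM in the others (ratio 0.757). Atp5b had 1397 CPM in DMBA3-4 replicate 4, against 1557 to 1642 CPM in the others (ratio 0.656). Replicate 6 was the lowest of its group for 67 of 76 subunits, a share not counted over all tested genes. Without it 66 subunits were called higher.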

How the results depend on the processing

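The count of subunits called higher was 59 to 66 when any 1 library was left out, with 1 called lower each time and a median log2 fold change of 0.60 to 0.74, and 6490 to 7139 of all tested genes were called. Other scalings, DESeq2, limma-voom and a filter of at least 10 counts in 6 libraries gave 62 to 66 higher and 1 lower. With no filter on low counts, 63 were higher and 0 lower, the median of all 33387 tested genes being -0.13 there. Requiring an absolute log2 fold change of at least 0.5 left 54 higher and 0 lower, and an adjusted p under 0.01 left 56 and 1. Without DMSO3-1 replicates 2 to 5, 2 were lower, 4605 genes were called and the median was 0.47, with 8 libraries in place of 12. Leaving out 1 library moved Atp5g2 between -0.19 and 0.01. Estimates near 0 changed sign: Atp5b was 0.01 with upper quartile scaling and 0.06 without DMSO3-1 replicates 1 and 6, Atp5g2 was 0.01 without DMSO3-1 replicate 5 and 0.13 without replicates 2 to 5, and without the same 4 Atp5a1 was -0.07 and Cox7a2l -0.05. The cause was not tested. Same-numbered libraries did not deviate together (correlations of -0.161 to 0.134, with replicate 1 alone matching its own number best), so the numbers do not pair them, and the replicate block gave 61 higher and 1 lower of the subunits, 6481 of all genes called and a median of 0.68.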
